A study of Homo sapiens with 2 samples.

Results

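Histone lysine methyltransferases and demethylases were followed after knockdown of YY1 in DLD-1, an epithelial cell line established from a human colorectal cancer. Members were all probe sets with a single gene symbol that begins with KMT, KDM or SETD and a digit, with SETDB, EHMT or SUV39H, or that is NSD1 to NSD3, DOT1L, ASH1L or SMYD1 to SMYD5. The rule found 49 genes, each with 1 probe set, among 17687 named genes. The series held 1 culture transfected with an siRNA against YY1 (siYY1) and 1 that received a negative control siRNA (siControl), both at 5 nmol/L, with RNA taken after 3 days and measured on 1 whole-transcript array each. The zinc finger protein YY1 can activate or repress the genes it binds. A single siRNA sequence was used, so the knockdown of YY1 and any other action of that siRNA cannot be told apart. The level of YY1 itself was not analysed here, so the knockdown is known from the labels only.

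With 1 array per group, differences are given without errors or p-values, and they compare 1 culture with 1 other. Levels are on a log2 scale after quantile normalization of the pair, and a difference is siYY1 minus siControl in log2 units. The log2 scale was inferred from the range of the deposited values. KDM5D is Y-linked, and its level is not given. Of the other 48 members, 42 were bright, meaning that their mean over both arrays reached 7.31, the median of such means for 17249 protein-coding genes. The cells had the marker levels of their label only in part: of 11 colorectal epithelial markers 7 were bright, among them EPCAM at 16.5 in siYY1 and 16.3 in siControl, while CDX1, VIL1, LGALS4 and CEACAM5 were dim. Of 13 fibroblast, leukocyte and endothelial markers, 2 were bright, COL1A2 at 8.84 in siYY1 and 8.62 in siControl and CD14 at 6.95 in siYY1 and 7.67 in siControl. As a measure of technical spread within these arrays, which says nothing of the spread between cultures, the differences of probe sets of the same gene lay a median of 0.38 apart over 20 genes, at most 0.98.

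Methyl groups on histone lysines are placed by methyltransferases, nearly all of which carry a SET domain, and removed by flavin-dependent KDM1 enzymes or by JmjC domain oxygenases that need iron, oxygen and 2-oxoglutarate. A residue is written as H3K4 for lysine 4 of histone H3. Methylation of H3K4 marks active promoters and enhancers, that of H3K36 marks transcribed gene bodies, and that of H3K9 marks silent chromatin. Several of these genes, among them KMT2C, KMT2D, SETD2 and KDM6A, are often mutated in human tumours.

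Of 7 bright genes in the H3K4 methyltransferase group, 4 were 2-fold or more higher in the siYY1 array, KMT2A to KMT2D. Of 4 bright H3K36 methyltransferases, 2 were 2-fold or more higher. These groups are named first because they had the highest medians of the member groups. The 5 bright demethylases of the KDM4 and KDM5 families were all below 0, and 1 of them, KDM5B, was 2-fold or more lower. The other 8 bright demethylases, from several families pooled here, were all above 0, and 1 of them, KDM3B, was 2-fold or more higher. With each array centred on its median, 5 of these 8 were above 0. Of all 8625 bright genes, 4296 were above 0 and 4326 below. In RNA from whole cultures, a lower level per cell and fewer cells that express a gene cannot be told apart. Of the 42 bright members, 11 were 2-fold or more higher in siYY1, or 26.2%, against 7.71% of all 8625 bright protein-coding genes. Lower by 2-fold or more were 2 members, or 4.76%, against 8.64% of all bright genes. The median difference was 0.26 over the members and -0.0035 over all bright genes, with members from -1.23 for SMYD4 to 2.15 for KMT2A. Without a brightness filter the same 11 and 2 stood among 48 members, where 4.61% of 17249 protein-coding genes were 2-fold or more higher and 5.67% 2-fold or more lower. By enzyme class, 10 of 29 bright methyltransferases and other SET domain proteins were 2-fold or more higher and 1 was 2-fold or more lower, while of 13 bright demethylases 1 was 2-fold or more higher and 1 2-fold or more lower.

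**Figure D1:**
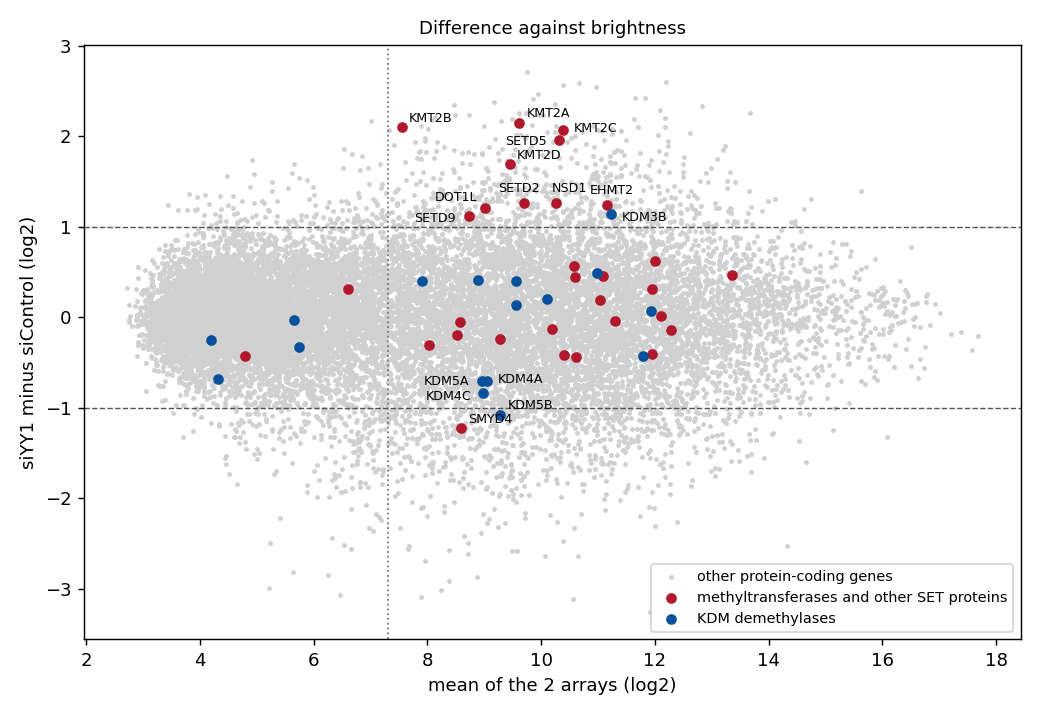
Difference (siYY1 minus siControl, log2, y axis) against the mean of the 2 arrays (log2, x axis) for members, red for methyltransferases and other SET proteins and blue for demethylases, and for other protein-coding genes in grey. Dashed lines mark 2-fold and the dotted line the brightness minimum of 7.31. KMT2A to KMT2D and SETD5, all past 3-fold, stand apart from the other members, and all but 1 of the members past 2-fold higher are red.

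The balance of directions depended on the scaling. In the values as deposited the median over all bright genes was -0.12, with 5.87% 2-fold or more higher and 11.6% 2-fold or more lower, and the members had a median of 0.12, with again 11 higher and 2 lower. With each array centred on its median, the median was -0.20 over all bright genes and 0.04 over the members. In that setting 9 members were 2-fold or more higher, where 4.79% of bright genes were, and 3 were 2-fold or more lower, where 13.5% were. SETD9 and KDM3B, both at 0.95 in that setting, left the higher group, and KDM4C, at -1.01, joined the lower one.

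The H3K4 methyltransferases of the KMT2 family gave 4 of the 5 largest differences among the members, all past 3-fold. KMT2A, whose protein is the founding MLL enzyme and keeps HOX genes active, was at 10.7 in siYY1 and 8.54 in siControl, 4.43-fold higher and number 28 from the top of 8625 genes. KMT2B, its closest paralog, was at 8.60 in siYY1 and 6.50 in siControl, a 4.28-fold difference at rank 36. The siControl value of KMT2B was below the brightness minimum of 7.31, so the size of its difference is uncertain. It counts as bright only through its siYY1 value, and so its place in the counts of bright members depends on the difference itself. KMT2C, which acts at enhancers, was at 11.4 in siYY1 and 9.35 in siControl, 4.19-fold higher at rank 41. RefSeq lists 4 pseudogenes of KMT2C, whose transcripts its probes could share. KMT2D, the enhancer enzyme paired with KMT2C, was at 10.3 in siYY1 and 8.60 in siControl, 3.23-fold higher at rank 126. All 4 genes were more than 3-fold higher in siYY1 after quantile normalization. KMT2D fell short of 3-fold as deposited, at 1.58, and with median centring, at 1.51. The spread between cultures, which these differences would have to exceed, was not measured.

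None of the remaining H3K4 genes found passed 2-fold, and SETD1B was not among the genes found. SETD1A, a catalytic subunit responsible for much H3K4 trimethylation, was at 11.3 in siYY1 and 10.9 in siControl, a difference of 0.45. KMT2E, a divergent family member with little or no methyltransferase activity known, was at 11.1 in siYY1 and 10.9 in siControl. SETD7, a monomethyltransferase that also modifies many other proteins, was the lowest of the group at 10.4 in siYY1 and 10.8 in siControl, a difference of -0.44. The large differences were thus those of KMT2A to KMT2D, with a median of 2.08, and the median of all 7 genes in the group was 1.69.

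**Figure D2:**
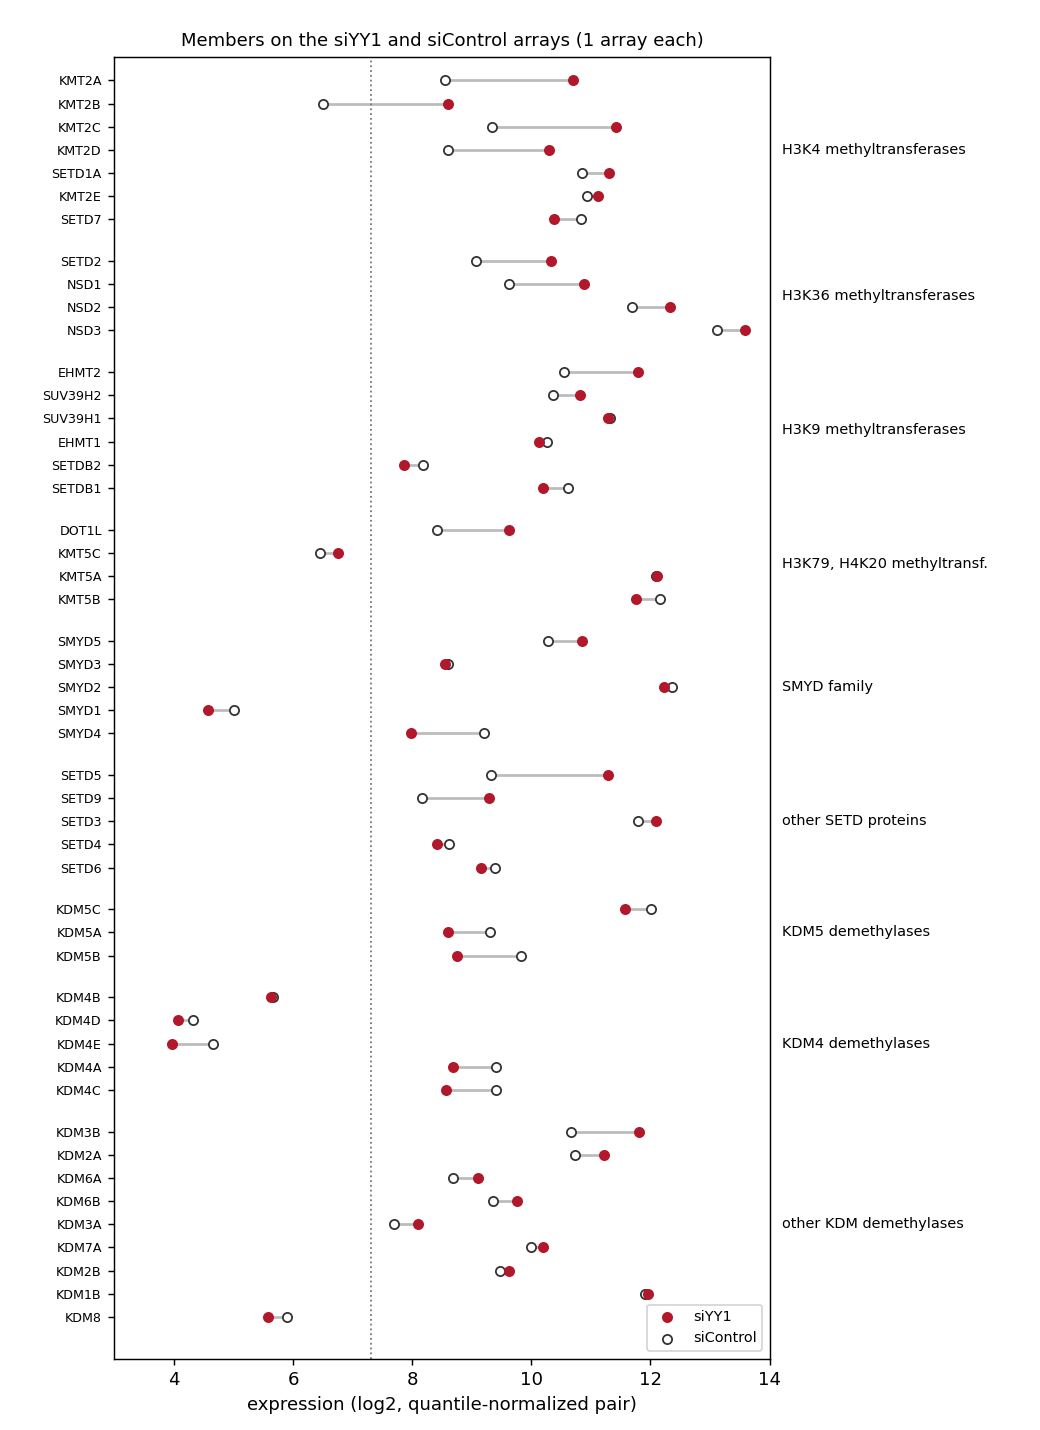
Level of each of the 48 members given (log2, x axis) on the siYY1 array (filled red) and the siControl array (open), by enzyme group, with a grey line joining both values. The dotted line marks the brightness minimum of 7.31. KMT2A to KMT2D and SETD5 have the longest lines, with siYY1 to the right, while KDM5A, KDM5B, KDM5C, KDM4A and KDM4C have siYY1 to the left.

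The 250 bases before the annotated start of KMT2A to KMT2D are shown because these 4 genes had the largest differences of the H3K4 enzymes. The sequences are from the RefSeq annotation of GRCh38.p14 and run 5′ to 3′ along the gene, with capitals for CG dinucleotides.
KMT2A (chr11:118436242-118436491, + strand): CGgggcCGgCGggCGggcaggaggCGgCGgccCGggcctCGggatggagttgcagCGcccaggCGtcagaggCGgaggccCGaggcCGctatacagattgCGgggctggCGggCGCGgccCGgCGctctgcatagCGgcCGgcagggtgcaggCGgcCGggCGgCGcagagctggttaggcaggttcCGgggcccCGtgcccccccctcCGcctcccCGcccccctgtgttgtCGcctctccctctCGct
KMT2B (chr19:35717753-35718002, + strand): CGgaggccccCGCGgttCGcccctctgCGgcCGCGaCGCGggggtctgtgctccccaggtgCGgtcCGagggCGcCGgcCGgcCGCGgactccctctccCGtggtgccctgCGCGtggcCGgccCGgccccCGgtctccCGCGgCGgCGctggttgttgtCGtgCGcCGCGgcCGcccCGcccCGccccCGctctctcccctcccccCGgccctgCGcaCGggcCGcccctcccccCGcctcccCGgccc
KMT2C (chr7:152436004-152436253, - strand): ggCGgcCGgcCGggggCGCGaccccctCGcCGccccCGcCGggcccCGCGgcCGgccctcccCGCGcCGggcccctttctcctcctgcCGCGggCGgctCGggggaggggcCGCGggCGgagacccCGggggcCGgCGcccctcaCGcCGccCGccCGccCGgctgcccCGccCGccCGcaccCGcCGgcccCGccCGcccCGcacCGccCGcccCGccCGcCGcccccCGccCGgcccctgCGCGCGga
KMT2D (chr12:49060795-49061044, - strand): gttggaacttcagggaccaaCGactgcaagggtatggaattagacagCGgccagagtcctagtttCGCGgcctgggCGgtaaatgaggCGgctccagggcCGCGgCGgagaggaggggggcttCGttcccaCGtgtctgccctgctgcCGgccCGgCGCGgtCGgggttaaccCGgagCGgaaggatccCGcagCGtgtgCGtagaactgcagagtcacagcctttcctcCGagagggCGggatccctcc
They held 31 CG dinucleotides in KMT2A, 40 in KMT2B, 48 in KMT2C and 23 in KMT2D, against a median of 16 over 22199 windows of the same length before protein-coding starts. GC content was 78.4% in KMT2A, 84.4% in KMT2B, 92% in KMT2C and 65.6% in KMT2D, against a median of 62%. All 4 regions were thus richer in CG dinucleotides and in GC than the median promoter of protein-coding genes, bright or dim. Bright genes alone and the other members were not compared in this way.

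The genes KMT2A to KMT2D encode very large proteins. A list of other genes of large proteins was written from general knowledge after values were seen, so its values are a description and support nothing. It had 73 bright genes with a median difference of 0.87, and 10 were below 0. Of the 73, 33 or 45.2% were 2-fold or more higher and 0 were 2-fold or more lower. Over all bright genes the shares were 7.71% and 8.64%. Protein lengths were not used here, and the part of protein or transcript size in the differences of KMT2A to KMT2D, SETD2, NSD1 and SETD5 was not tested. Genomic span, which could be measured, had a Spearman correlation of 0.05 with the difference over the 42 bright members and 0.09 over all 8625 bright genes. The members past 3-fold ran from 20.9 kb for KMT2B to 301 kb for KMT2C in span. The 863 bright genes with the widest spans had a median of 0.23, with 16.7% 2-fold or more higher and 6.14% 2-fold or more lower. The 863 with the narrowest had a median of 0.01, with 3.71% higher and 6.72% lower by 2-fold or more.

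The 4 H3K36 methyltransferases found were all above 0. ASH1L, which the rule also names, was not among the genes found. SETD2, the enzyme of H3K36 trimethylation, which travels with elongating RNA polymerase, was at 10.3 in siYY1 and 9.06 in siControl, 2.40-fold higher. NSD1, which dimethylates H3K36, was at 10.9 in siYY1 and 9.63 in siControl, 2.39-fold higher. Its paralog NSD2 was at 12.3 in siYY1 and 11.7 in siControl, a difference of 0.62. NSD3, the last of these paralogs, was at 13.6 in siYY1 and 13.1 in siControl, a difference of 0.47. The 4 genes had a median of 0.94, and they stayed above 0 in the values as deposited and with median centring or loess on brightness.

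The H3K9 methyltransferases lay on both sides of 0. Of the 6, 1 was 2-fold or more higher, or 16.7%, against 7.71% of all bright genes, and 0 were 2-fold or more lower, against 8.64%. EHMT2, which encodes G9a, the main H3K9 dimethyltransferase of euchromatin, was at 11.8 in siYY1 and 10.5 in siControl, 2.36-fold higher. EHMT1, which encodes its obligate partner GLP, was at 10.1 in siYY1 and 10.3 in siControl, a difference of -0.14. So 1 partner gene was past 2-fold and the other was close to equal on the arrays. For the heterochromatin enzymes, SUV39H2 differed by 0.45 and SUV39H1 by -0.04. SETDB1, the enzyme brought to retroelements by TRIM28, was the lowest at 10.2 in siYY1 and 10.6 in siControl, a difference of -0.42, and its paralog SETDB2 differed by -0.31.

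DOT1L, the only known H3K79 methyltransferase and one without a SET domain, was at 9.62 in siYY1 and 8.42 in siControl, 2.30-fold higher. The H4K20 enzymes did not follow it. KMT5A, which places the first methyl group on H4K20, was at 12.1 on both arrays, and RefSeq lists 3 pseudogenes of it. KMT5B, which adds further methyl groups, was at 11.7 in siYY1 and 12.2 in siControl, a difference of -0.41, and its paralog KMT5C was dim with a difference of 0.31. The median of the 3 bright genes was 0.01 and changed sign with the scaling.

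Among the other SETD proteins, SETD5 and SETD9 were higher. SETD5, a chromatin regulator linked to intellectual disability, was at 11.3 in siYY1 and 9.33 in siControl, 3.89-fold higher and number 60 from the top. SETD9, a SET domain gene of little known function, was at 9.28 in siYY1 and 8.17 in siControl, 2.17-fold higher. The actin histidine methyltransferase SETD3 differed by 0.31, SETD4 by -0.20 and SETD6, which methylates the NF-kB subunit RELA, by -0.25.

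The SMYD family held the lowest member of all. SMYD4 was at 7.98 in siYY1 and 9.21 in siControl, 2.34-fold lower. SMYD2, which methylates many proteins outside chromatin, differed by -0.14 and SMYD3 by -0.06, so both were close to equal on the arrays. SMYD5 was the highest of the family at 10.9 in siYY1 and 10.3 in siControl, a difference of 0.56. The muscle gene SMYD1 was dim on both arrays, at 4.58 in siYY1 and 5.01 in siControl.

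Of the 3 KDM5 demethylases given, which remove methyl groups from H3K4, 1 was 2-fold or more lower in the siYY1 array and all were below 0. The share 2-fold or more lower was 33.3%, against 8.64% of all bright genes. KDM5B, first described in breast cancer cells as PLU-1, was at 8.74 in siYY1 and 9.82 in siControl, 2.11-fold lower. KDM5A, which was found as a partner of the retinoblastoma protein, was at 8.60 in siYY1 and 9.30 in siControl, a difference of -0.71. KDM5C, an X-linked gene mutated in intellectual disability, was at 11.6 in siYY1 and 12.0 in siControl, a difference of -0.42. All 3 were below 0 in every scaling tried, with a median of -0.71. Of the 7 genes in the H3K4 methyltransferase group, 6 were above 0, KMT2A to KMT2D among them, while SETD7 was at -0.44. With median centring 5 of these 7 were above 0, and KMT2E was at -0.016.

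The KDM4 demethylases, which act on H3K9 and H3K36, had no member past 2-fold, and the 2 bright ones were below 0. KDM4C was at 8.56 in siYY1 and 9.40 in siControl, a difference of -0.84. KDM4A was at 8.69 in siYY1 and 9.40 in siControl, a difference of -0.71. The other 3 were dim, and KDM4E differed by -0.69, KDM4D by -0.25 and KDM4B by -0.03. These dim values carry little weight, since all of them were below 5.7 on both arrays.

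The other demethylases were at or above 0 where bright, with a median of 0.40 over 8 genes. KDM3B, an H3K9 demethylase, was the only one past 2-fold, at 11.8 in siYY1 and 10.7 in siControl, 2.21-fold higher. Its paralog KDM3A, an enzyme induced by low oxygen, differed by 0.40. The H3K27 demethylases KDM6A and KDM6B, which oppose Polycomb, were at 9.10 and 9.77 in siYY1 against 8.69 and 9.36 in siControl, differences of 0.41 and 0.40. KDM2A, an H3K36 demethylase that binds unmethylated CG dinucleotides, differed by 0.48 and its paralog KDM2B by 0.14. KDM7A differed by 0.20 and the flavin-dependent KDM1B, the lowest of the 8, by 0.07. In the values as deposited 7 of these 8 were above 0, and with median centring 5 were. KDM8, at 5.57 in siYY1 and 5.90 in siControl, was dim.

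**Figure D3:**
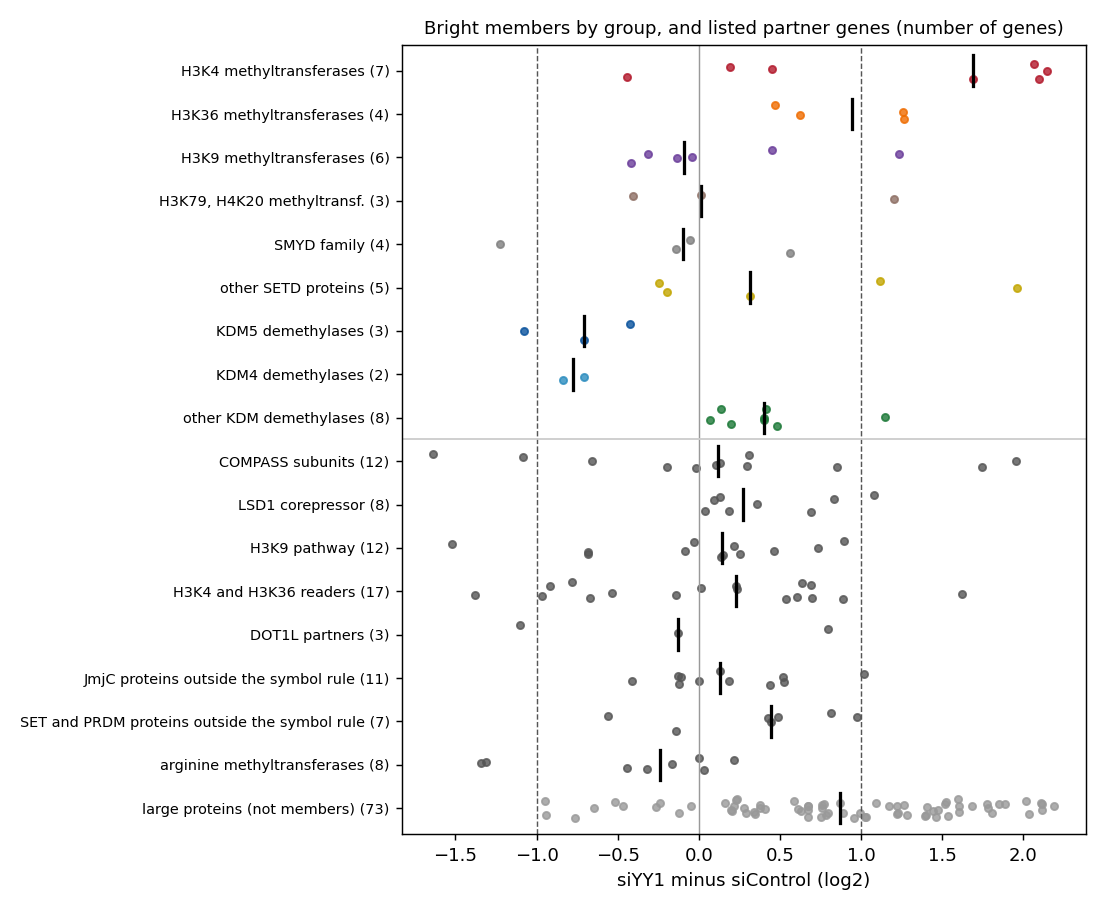
Differences (siYY1 minus siControl, log2, x axis) of bright genes, with 1 point per gene, by member group above the grey line and by listed partner genes and genes of large proteins below it. Black bars are medians, dashed lines mark 2-fold and the number of genes is in brackets. The H3K4 and H3K36 methyltransferases have medians of 1.69 and 0.94, the KDM5 and KDM4 demethylases -0.71 and -0.77, and the large proteins, listed after values were seen, 0.87.

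Subunits of the complexes that carry the H3K4 enzymes lay on both sides of 0. COMPASS, the complex around the KMT2 and SETD1 enzymes, had 12 bright subunits with a median of 0.12. Of these, 2 were 2-fold or more higher and 2 2-fold or more lower, or 16.7% each. Over all bright genes the shares were 7.71% and 8.64%. HCFC1, a host cell factor that binds the complex, was at 12.1 in siYY1 and 10.1 in siControl, a difference of 1.96. NCOA6, a subunit of the KMT2C and KMT2D complexes, was at 11.9 in siYY1 and 10.2 in siControl, a difference of 1.74. MEN1, which encodes menin and tethers KMT2A and KMT2B to their targets, was at 9.69 in siYY1 and 11.3 in siControl, a difference of -1.64. RBBP5, a core subunit needed for catalysis, was at 8.83 in siYY1 and 9.92 in siControl, a difference of -1.09. The core subunits WDR5 and ASH2L differed by 0.13 and -0.02.

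In the other 7 lists 3 of 66 bright genes were 2-fold or more higher, or 4.55%, and 5 were 2-fold or more lower, or 7.58%, against 7.71% and 8.64% of all bright genes. The LSD1 corepressor, which works with KDM1A, had 8 bright genes, all above 0 after quantile normalization, and GSE1 was past 2-fold at 1.08. The lowest of them was HDAC1 at 0.04, and their signs in other scalings are not given here. KDM1A itself was not among the genes found. In the H3K9 list of 12 bright genes, ATF7IP, the partner of SETDB1, was at 10.5 in siYY1 and 12.0 in siControl, a difference of -1.52, and no gene was 2-fold or more higher. The 17 readers of H3K4 and H3K36 methylation had a median of 0.23, with the remodeller CHD1, which binds methylated H3K4, at 1.62 and GLYR1 at -1.38. Of the DOT1L partners, MLLT10 was at -1.10, against 1.20 for DOT1L itself, and MLLT1 was at 0.80. JmjC proteins outside the symbol rule had a median of 0.13 over 11 genes, with JMJD1C, the paralog of KDM3A and KDM3B, past 2-fold at 1.02. Of 7 SET and PRDM proteins outside the rule, the Polycomb enzymes EZH2 and EZH1 differed by 0.45 and 0.42 and none passed 2-fold. Arginine methyltransferases had a median of -0.24 over 8 genes, with PRMT6 at -1.34 and PRMT5 at -1.31, and none was 2-fold or more higher.

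Promoters were searched for a YY1 motif, since YY1 was the factor targeted. The motif was GCCATNTT on either strand, in windows from 250 bases before to 50 after each RefSeq start in GRCh38.p14. It was found in 11 of the 45 member genes with a window, or 24.4%, against 14.1% of 7287 bright genes and 9.67% of 15843 protein-coding genes with a window. Counted by window, it was in 20.3% of the members' 64 windows, against 10.4% of windows of bright genes, 7.37% of windows of protein-coding genes and 6.58% of all 35116. Members without a window were NSD3, KDM4E and DOT1L, and SMYD1, with a match, was dim. The sites of the 10 bright genes follow, ordered by the difference of the gene from high to low, because they show which members have the motif close to their start. Each is a stretch of 30 bases, 5′ to 3′ along the gene, with the motif or its reverse complement in capitals.
KMT2A (chr11:118436499-118436528, + strand): ttcacggggcgAACATGGCgcacagctgtc
KMT2B (chr19:35718005-35718034, + strand): ctcacggtgccAAGATGGCggcggcggcgg
NSD1 (chr5:177131651-177131680, + strand): gggcaacgccaAAAATGGCctttctcccag
EHMT2 (chr6:31897772-31897801, - strand): gctctcaggggAAAATGGCcaaaaagcatg
SMYD5 (chr2:73214253-73214282, + strand): gaggcgcgcccAAGATGGCggcctccatgt
KDM2A (chr11:67119273-67119302, + strand): ctgacgggttcAAAATGGCggcggctgctt
KDM2A (chr11:67240026-67240055, + strand): ctccccctcctGCCATCTTccgttgcaaag
SUV39H2 (chr10:14878875-14878904, + strand): gaaagctctacAAGATGGCggcggtcgggg
KMT2E (chr7:105014068-105014097, + strand): agcccacaagcAAAATGGCgccgggcagct
KMT2E (chr7:105014183-105014212, + strand): ccgccgccgccGCCATTTTcccagagcgag
KMT5B (chr11:68213281-68213310, - strand): cggcccgcgccGCCATCTTggattttactc
KDM5C (chrX:53225181-53225210, - strand): gctgacaaaccAAGATGGCggcggcggcgc
The match of KMT2A began 18 bases after the start, that of KMT2B 13, SMYD5 19, SUV39H2 20 and KDM5C 8. In NSD1 it began 136 bases before the start and in EHMT2 92. Of the 12 matches, 9 began within 25 bases of the start, and 9 were in the reverse orientation.

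Of the 10 bright members with the motif, 4 were 2-fold or more higher (KMT2A, KMT2B, NSD1 and EHMT2) and 0 2-fold or more lower, with a median of 0.52 and a range from -0.42 to 2.15. Of the 30 without it, 6 were 2-fold or more higher and 2 2-fold or more lower, with a median of 0.04 and a range from -1.23 to 2.07. KMT2C and KMT2D had no match in their windows. Over all bright genes with a window, the 1025 with the motif had a median of 0.01 and the 6262 without it -0.02, with 7.02% and 7.46% 2-fold or more higher and 10.2% and 8.75% 2-fold or more lower. The ranges of members with and without the motif overlapped widely, and a match of letters does not show that YY1 binds there.

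**Figure D4:**
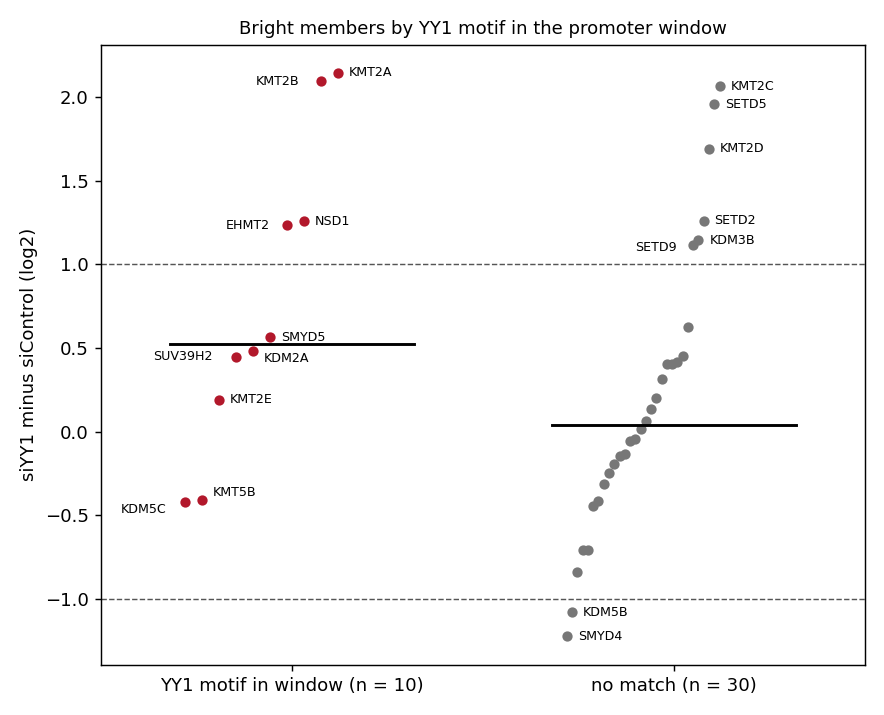
Differences (siYY1 minus siControl, log2, y axis) of 40 bright members with a promoter window, by whether the window holds the YY1 motif (left, red, n = 10) or has no match (right, grey, n = 30). Black bars are medians, 0.52 and 0.04, and dashed lines mark 2-fold.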

How the data were processed

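Each probe set has 1 deposited value per array, taken here as log2 from the range of 2.51 to 17.9. Biotin-labelled sense cDNA was hybridised, per the labels' protocols. The authors' software, background correction and normalization of these log2 values were not given in the sources used here. Deposited medians were 6.93 for siYY1 and 6.86 for siControl, and the 75th percentiles differed by -0.13, so the pair was quantile normalized.

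Of 21448 probe sets, 17709 had a single symbol in the platform annotation. Symbols were updated by gene ID from RefSeq (GRCh38.p14), where all 17687 genes matched, and probe sets of a gene were averaged. Bright genes had a mean at or above the median over protein-coding genes, which left 8625. With 1 array per group, genes were counted at 2-fold, with no test. Every member past 2-fold and the extremes of each group are named. The members and lists were chosen with earlier results of these data known. Protein lengths, planned for 1 comparison, were not used here. The computation was tested on simulated data. Python 3.11.15, numpy 2.4.6, pandas 2.3.3, statsmodels 0.14.6 and matplotlib 3.10.9 were used.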

Additional observations from a re-analysis of the deposited data

How the results depend on the processing

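Of the 13 members past 2-fold, 11 stayed past 2-fold as deposited, with median centring and with loess on brightness, and the other 2, SETD9 and KDM3B, were at 0.95 with median centring. All 126 gene values recomputed this way stayed within 0.38 of the reported ones, the median gap between probe sets of a gene. The median over all bright genes ran only from -0.20 to -0.0035 across these scalings, so the values could hardly have left that limit. Each member has 1 probe set, so taking the brightest could not change it. With genes at or above the 75th percentile of brightness, 19 members remained, of which 3 were 2-fold or more higher and 0 lower, against 6.93% and 7.37% of 4313 genes. There the median was 0.32 for H3K4 methyltransferases, where KMT2A, KMT2B and KMT2D were left out, 0.55 for H3K36 methyltransferases, and it changed sign to 0.20 for H3K9 methyltransferases, -0.20 for H3K79 and H4K20 methyltransferases and 0.21 for the SMYD family, because fewer genes were compared. At 1.5-fold 12 members were higher and 5 lower, and at 3-fold 5 were higher and 0 lower. The shares of all bright genes at these thresholds are not given here. As deposited, the medians of H3K79 and H4K20 methyltransferases (-0.13) and COMPASS subunits (-0.015) changed sign. With median centring those of H3K79 and H4K20 methyltransferases (-0.20), COMPASS subunits (-0.089), the H3K9 list (-0.051) and JmjC proteins (-0.00061) did. With a shorter motif 14 member genes, or 31.1%, had a match, against 21.8% of bright genes and 18.6% of protein-coding genes. With a longer one 10 member genes, or 22.2%, had a match, against 11.2% and 7.01%. The comparison with protein length and its alternatives were not run, except the one with genomic span. Leaving out a replicate was not possible with 1 array per group. Dim probe sets compress differences, which limits the 6 dim members and KMT2B.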
